A study of Mus musculus with 39 samples.

Results

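Interferon-stimulated genes are the transcripts that cells make in large amounts after an interferon binds its receptor. The 45 genes followed here are 31 type I/III interferon genes and 14 interferon gamma genes, well known interferon targets that were looked up by symbol among the 56980 gene identifiers of the count files. All 45 were found, and all 45 had enough counts to be tested among 14658 tested genes. The split in 2 classes is a convention, since most of these genes answer to both kinds of interferon.

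Transcripts were counted by RNA-seq in mucosa scraped from the proximal small intestine of 39 female C57BL/6JRccHsd mice aged 42 days, 1 library per mouse. After weaning on day 21 the mice had eaten 1 of 3 diets of equal energy for 3 weeks, with 13 mice per diet. The lactose diet had 32% of its energy as lactose, the galactose diet had 16% as galactose and 16% as glucose, and the glucose diet had 32% as glucose. Starch at 32%, fructose at 3%, protein at 20% and fat at 20% of energy were shared by all 3 diets. The mice were killed in the fed state, and 2 cm of duodenum next to the stomach was left out. Lactose is the sugar of milk and is split at the brush border into galactose and glucose, so the lactose and galactose diets bring the gut the same monosaccharides in different form. Scraping gathers mostly enterocytes but also other mucosal cells, and in such bulk samples fewer cells of a type and less RNA per cell cannot be told apart.

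Type I interferons signal through a receptor found on nearly all cells, and type III interferons (the lambda interferons) through a receptor that in the gut is found mainly on epithelial cells. Both act on genes through the interferon-stimulated response element (ISRE). Interferon gamma, made mostly by T cells and natural killer cells, acts through a different element, the gamma-activated site (GAS), and is known for the large GTPases and the antigen-processing machinery that it induces. The gut epithelium holds a low level of these transcripts in the absence of infection.

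Promoters of 5 members are shown for the elements just named. The windows below run from 250 bases before to 50 bases after the annotated gene start and were taken from RefSeq on GRCm38.p6, given 5′ to 3′ on the strand of the gene. Capitals mark matches to the ISRE core, GAAA and again GAAA with any 2 bases between them, on either strand, and in Igtp also a match to the GAS core TTCNNNGAA, which reads the same on both strands. Ifit1, Ifit3 and Isg15 are shown as type I/III genes with repeated ISRE cores, Gbp2 and Igtp as gamma genes. Ifit1 lies at chr19:34640639-34640938 (plus strand), Ifit3 at chr19:34583279-34583578 (plus strand), Isg15 at chr4:156200769-156201068 (minus strand), Gbp2 at chr3:142620413-142620712 (plus strand) and Igtp at chr11:58199306-58199605 (plus strand).
Ifit1: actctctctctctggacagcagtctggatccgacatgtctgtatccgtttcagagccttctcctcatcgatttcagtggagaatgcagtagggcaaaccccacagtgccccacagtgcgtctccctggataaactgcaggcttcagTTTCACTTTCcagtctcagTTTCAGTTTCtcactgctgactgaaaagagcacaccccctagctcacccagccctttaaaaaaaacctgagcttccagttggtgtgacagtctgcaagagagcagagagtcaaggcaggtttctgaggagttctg
Ifit3: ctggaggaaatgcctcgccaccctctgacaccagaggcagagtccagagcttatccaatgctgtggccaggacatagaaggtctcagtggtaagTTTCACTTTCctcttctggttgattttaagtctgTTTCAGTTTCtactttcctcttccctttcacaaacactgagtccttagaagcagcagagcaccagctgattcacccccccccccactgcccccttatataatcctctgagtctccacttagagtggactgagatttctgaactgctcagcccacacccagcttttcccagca
Isg15: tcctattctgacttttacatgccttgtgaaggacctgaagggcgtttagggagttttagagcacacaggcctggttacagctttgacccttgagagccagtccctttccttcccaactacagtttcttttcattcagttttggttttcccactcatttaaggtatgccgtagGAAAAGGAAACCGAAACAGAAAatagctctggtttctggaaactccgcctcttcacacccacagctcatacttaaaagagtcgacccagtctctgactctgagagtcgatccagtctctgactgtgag
Gbp2: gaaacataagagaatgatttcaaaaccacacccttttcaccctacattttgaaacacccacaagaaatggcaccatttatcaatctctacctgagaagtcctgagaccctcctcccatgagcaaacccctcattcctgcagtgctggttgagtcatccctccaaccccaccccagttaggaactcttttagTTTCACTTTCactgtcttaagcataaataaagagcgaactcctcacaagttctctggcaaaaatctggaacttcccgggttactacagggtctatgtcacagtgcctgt
Igtp: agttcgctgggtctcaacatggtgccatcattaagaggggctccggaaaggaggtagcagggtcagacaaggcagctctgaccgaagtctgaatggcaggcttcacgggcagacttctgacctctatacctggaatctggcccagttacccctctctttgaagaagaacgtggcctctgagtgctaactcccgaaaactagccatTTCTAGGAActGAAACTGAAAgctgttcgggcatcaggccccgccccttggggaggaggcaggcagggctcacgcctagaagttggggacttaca

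Ifit1 and Ifit3 each held 2 separate ISRE cores, Isg15 held 3 that overlap each other, Gbp2 held 1, and Igtp held 1 with a GAS core just before it. A window was listed for 32 of the 45 members. An ISRE core was found in 19 of these 32 (59.4%), against 3.99% of the 27025 genes with a window. It was found in 7 of 11 gamma genes (63.6%) and in 12 of 21 type I/III genes (57.1%). A GAS core was found in 9 of the 32 members (28.1%), against 9.55% of all genes, with 5 of 11 gamma genes (45.5%) and 4 of 21 type I/III genes (19%). Bst2, Gbp7, Igtp, Irgm2 and Oas1a held both, and 9 members, among them Irf7 and Tap1, held neither in this window. Of the 29 ISRE matches, 25 began within 200 bases before the gene start. The matches are a description of letters, not of factors bound in these mice.

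**Figure D1:**
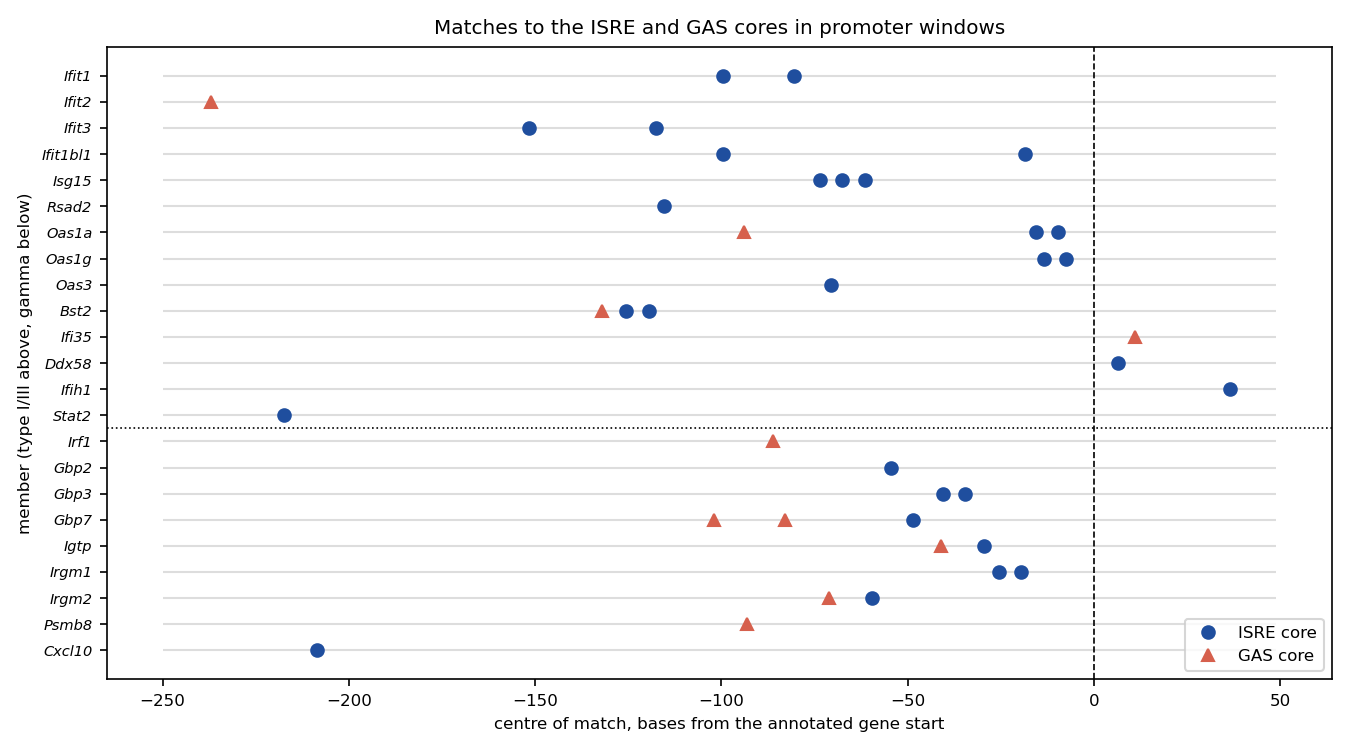
Matches to the ISRE core (circles) and the GAS core (triangles) in the promoter windows of the members that held a match; the horizontal axis gives the distance of the centre of each match from the annotated gene start in bases, with type I/III genes above the dotted line and gamma genes below. Of the 29 ISRE matches, 25 began within 200 bases before the start, and both classes held matches of both kinds.

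Libraries held 19685385 to 21350610 counts in genes, with a median of 20799634. Levels are given as CPM, the counts relative to the size of the library after TMM factors, which correct for differences in library composition. The summed level of 8 enterocyte markers ran from 26100 to 36100 CPM in lactose, 19100 to 33100 CPM in galactose and 19000 to 33200 CPM in glucose mice. The titles of the samples carry numbers from 1 to 18 and from 49 to 69, which are used here to name mice. These 2 runs of numbers are not labelled as batches. The galactose mouse 11 stood apart with 42200 CPM of pancreatic transcripts, and its effect on the members' counts of calls is given with the other alternatives.

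The widest differences among the 39 mice did not follow the diets. Ifit3, an RNA-binding antiviral protein, had 633 and 133 CPM in the lactose mice 55 and 8, 532, 389 and 264 CPM in the galactose mice 56, 7 and 53, and 661 and 273 CPM in the glucose mice 52 and 57. In the other mice Ifit3 ran from 5.66 to 57.6 CPM. A limit of 100 CPM, taken from the rule for this gene list, therefore set 7 libraries apart, 2 from lactose, 3 from galactose and 2 from glucose. The library just inside the limit was the lactose mouse 8 with 133 CPM, and the library just outside it was the galactose mouse 51 with 57.6 CPM. The 7 mice had neighbouring title numbers, 7 and 8 in the lower run and 52, 53, 55, 56 and 57 in the upper run, where only the lactose mouse 54 with 24.3 CPM lay between them. Whether the numbers stand for cages, days or the order of handling is not given in the sources used here.

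**Figure D2:**
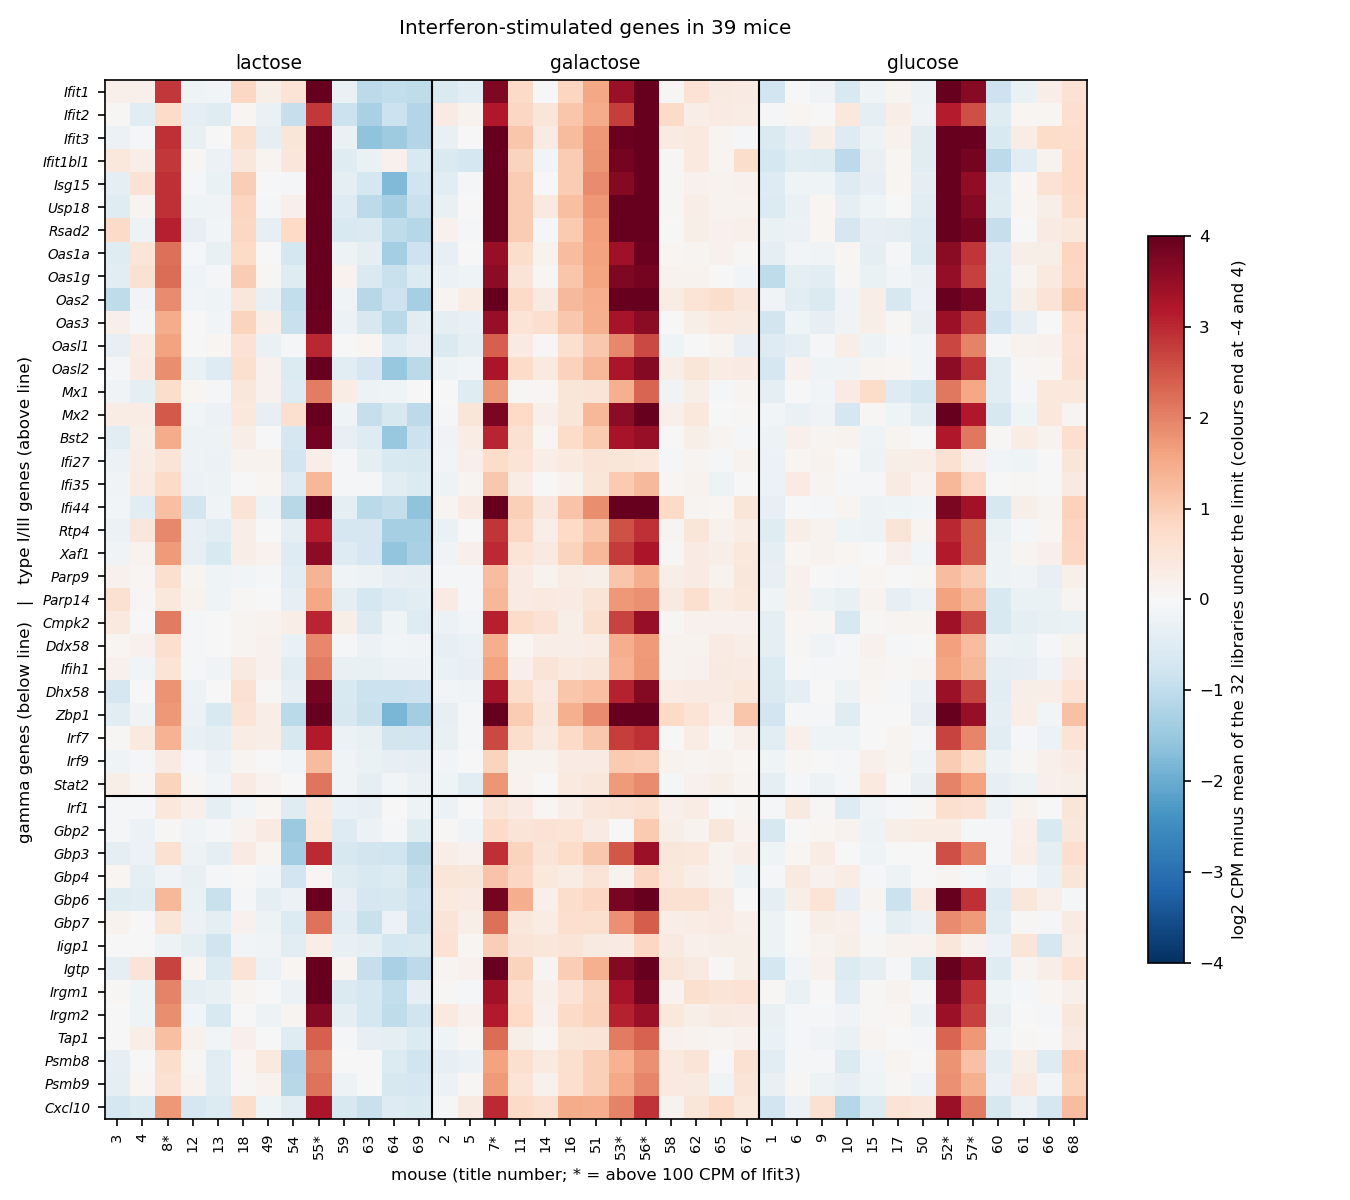
Level of each member (rows, with type I/III genes above the line and gamma genes below it) in each of the 39 mice (columns, ordered by title number within lactose, galactose and glucose); colour gives log2 CPM minus the mean of the 32 libraries at or under 100 CPM of Ifit3, and stars mark the other 7. The 7 starred columns are dark across most rows, while Ifi27, Irf1, Gbp2, Gbp4 and Iigp1 remain pale in them.

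The rest of the list moved with Ifit3 in those 7 mice. Since they were set apart by a member of the list, what follows is a description without a test. In 30 of the 45 members all 7 libraries lay above every other library, and in 10 more members 6 of the 7 did. These 30 were 25 of the 31 type I/III genes and 5 of the 14 gamma genes. The 5 gamma genes were Igtp, Irgm1, Irgm2, Tap1 and Cxcl10. At the other end, Ifi27, Gbp2, Gbp4 and Iigp1 had 2 of the 7 libraries above all others, and Irf1 had 4.

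Among the antiviral effectors, Isg15, a ubiquitin-like protein that is attached to other proteins, had 667 and 168 CPM in the lactose mice 55 and 8, 428, 368 and 280 CPM in the galactose mice 56, 7 and 53, and 493 and 257 CPM in the glucose mice 52 and 57. In the other 32 libraries Isg15 ran from 6.39 to 81.2 CPM, so the groups did not overlap. Set against the median of the mice of the same diet under the limit, Isg15 was 9.25 to 36.6 times as high in the 7 libraries. Rsad2 (viperin) was 10.9 to 43 times as high, Usp18, which removes Isg15 from proteins, 8.66 to 38.7 times, and Ifit1 7.58 to 28.4 times. Oas2, an enzyme that makes the oligoadenylate activating RNase L, had the largest ratio of any member in any of the 7 libraries, with 77.6 CPM in the lactose mouse 55, which was 53.5 times the lactose median. Mx1, a GTPase that blocks viruses, was 1.72 to 4.85 times as high, and C57BL/6 mice are known to carry a defective copy of this gene.

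The sensors of viral nucleic acid split into low and high ratios. Ddx58 (RIG-I) was 1.66 to 3.89 times and Ifih1 (MDA5) 1.6 to 4.56 times as high as the median of their own diet. Dhx58 (LGP2) was 4.46 to 18.4 times as high and Zbp1, a sensor of left-handed nucleic acid, 5.14 to 38.9 times. Among the transcription factors, Irf7 was 3.24 to 11.1 times, Stat2 1.88 to 4.46 times and Irf9 1.41 to 2.7 times as high.

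The gamma genes were raised less, but unequally. Across the 7 libraries the median ratio over the 31 type I/III genes ran from 4.18 in the lactose mouse 8 to 17.3 in the lactose mouse 55, and the median over the 14 gamma genes from 1.9 to 5.43 in the same mice. The gamma median was the lower of the pair in each of the 7 libraries. Igtp, an immunity-related GTPase, ran with the type I/III genes at 7.85 to 28.6 times, and Irgm1 and Irgm2, of the same family, at 4.96 to 22.5 and 4.18 to 14.6 times. Iigp1, an effector GTPase of the same family, was 0.982 to 1.58 times its own diet's median. Of the guanylate-binding proteins, Gbp6 was 3.8 to 24.3 times as high, Gbp3 2.05 to 10.7 times and Gbp7 1.65 to 5.33 times, whereas Gbp2 was 0.837 to 1.72 and Gbp4 0.817 to 1.66 times. Tap1, the peptide transporter of antigen presentation, was 2.4 to 5.53 times as high, the immunoproteasome subunits Psmb8 and Psmb9 1.63 to 4.31 and 1.74 to 5.17 times, and the chemokine Cxcl10 2.77 to 15 times. Irf1, an interferon gamma-induced transcription factor, had a median ratio of 1.42 over the 7 libraries and at most 1.58.

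**Figure D3:**
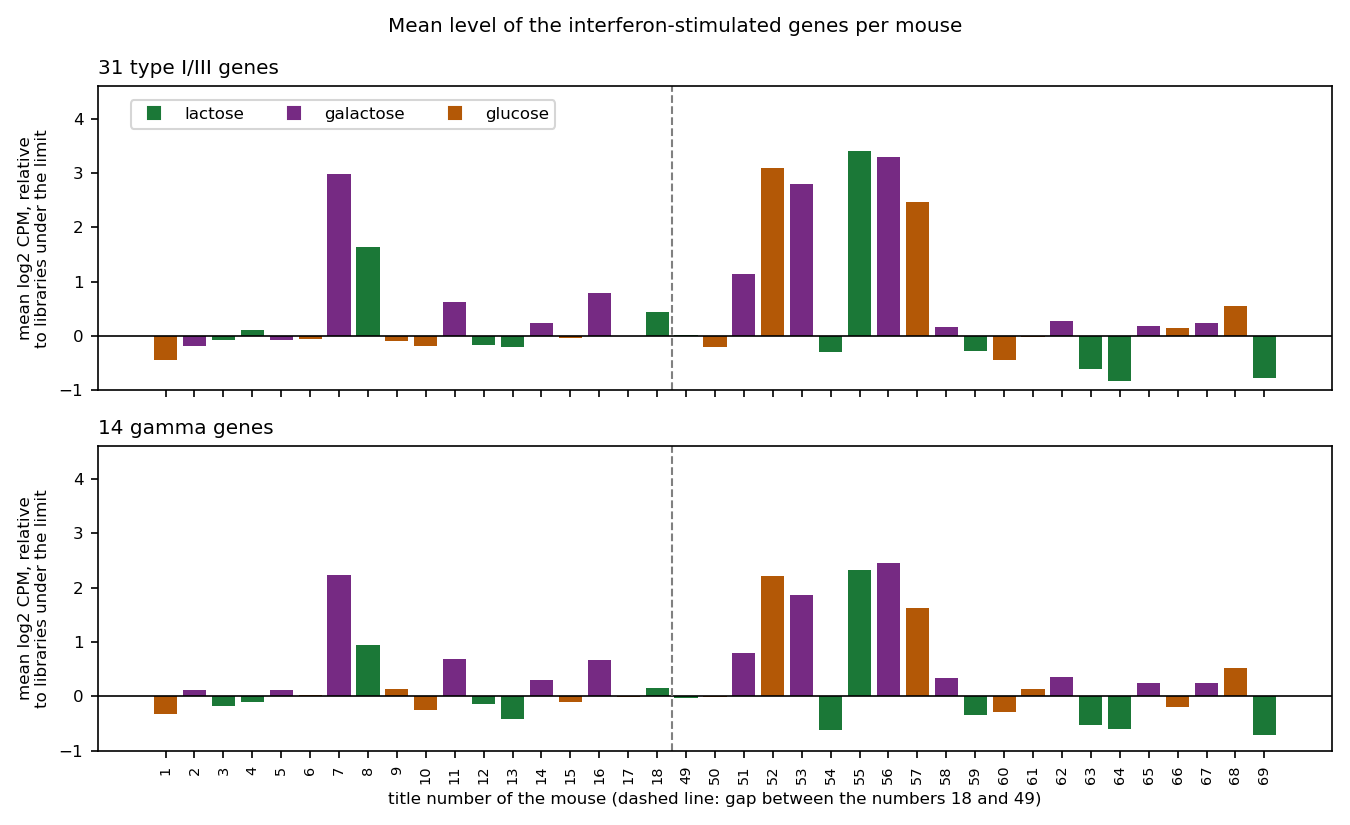
Mean level of the 31 type I/III genes (upper panel) and of the 14 gamma genes (lower panel) in each mouse, in the order of the title numbers; the vertical axis is the mean log2 CPM relative to the libraries at or under 100 CPM of Ifit3, and colours give lactose, galactose and glucose. The bars of the mice 7, 8, 52, 53, 55, 56 and 57 stand highest in both panels, followed by the galactose mouse 51.

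Interferon transcripts themselves were scarce, and none of the 21 interferon genes looked up passed the filter on low counts. The lambda interferons Ifnl2 and Ifnl3 had 36 counts together in the lactose mouse 55 and 19 in the lactose mouse 8. They had 31, 17 and 10 counts in the galactose mice 7, 56 and 53, and 22 and 20 counts in the glucose mice 52 and 57. In the other 32 libraries both genes together had 2 counts, all in the lactose mouse 54. The sum was thus 155 counts in the 7 libraries and 2 counts in the 32 others, with a count in 7 of 7 and in 1 of 32 libraries. Ifnl2 and Ifnl3 are near-identical copies, so their split is uncertain and the sum is the safer value. Ifnb1 had 2 counts in all, both in libraries of the 7 (the lactose mouse 55 and the glucose mouse 52), and Ifng had 2 counts in all, both in the other libraries. The 18 type I genes together had 11 counts over all 39 libraries.

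The receptor chains Ifnar1 and Ifnlr1 did not set the 7 libraries apart. The chain Ifnar1 of the type I receptor had 38.3 to 48.9 CPM in the 7 libraries and 34 to 52.2 CPM in the others. The lambda receptor chain Ifnlr1 had 30.3 to 40.2 CPM in the 7 libraries, inside its range of 25.3 to 46.9 CPM in the others. Socs1, which restrains interferon signalling, had 2.97 to 5.96 CPM in the 7 libraries, above its range of 0.748 to 2.88 CPM in the others. The summed level of 10 markers of T and natural killer cells was 77.3 to 126 CPM in the 7 libraries and 34.8 to 92.8 CPM in the others, with none of the 10 at 0 in every library, and the part of these cells in the interferon gene levels was not tested. These 2 ranges overlapped. So did the summed markers of macrophages and dendritic cells (149 to 262 against 102 to 240 CPM), of neutrophils, of B and plasma cells and of enterocytes.

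The spread of the list within diets was smaller without these 7 mice. Leaving out mice by the level of a member lowers the spread of members that move with it, so this is a description. Within diets the standard deviation of log2 CPM had a median of 1.18 over the 45 members, at the 98.3 percentile of all tested genes, and of 0.382 without the 7 libraries, at the 72.1 percentile. Of the 45 members 27 had a standard deviation above 1 with all mice, and none did without the 7 libraries. Ifit3 varied most, with a standard deviation of 1.84 with all libraries and 0.635 without the 7, where the limit on Ifit3 itself sets the split. The members that varied least within diets were Irf1, Iigp1, Gbp4, Ifi27 and Gbp2, with standard deviations of 0.287, 0.293, 0.307, 0.312 and 0.388 with all libraries.

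Over all 39 libraries the fit called no larger share of the 45 members than of all genes, counted in either direction. A gene is called where its adjusted p from the quasi-likelihood test of edgeR over all tested genes is under 0.05. In lactose against galactose 7 of the 45 members were lower and none higher, where 30.9% of all tested genes were called and 15% were lower. In lactose against glucose 2 members were lower, where 15.6% of all genes were called and 6.84% were lower. In galactose against glucose 1 member was higher, where 4.07% of all genes were called and 1.21% were higher. In this fit the share of members called was 15.6%, 4.44% and 2.22%. The first 2 lie near or below the share of all genes that were lower, and the last rests on 1 member. By class, 5 of 14 gamma genes (35.7%) and 2 of 31 type I/III genes (6.45%) were lower in lactose against galactose. All calls in the other comparisons were gamma genes. This split was not tested. The median log2 fold change of the members was -0.64 in lactose against galactose, -0.11 in lactose against glucose and 0.53 in galactose against glucose, where the median of all tested genes was -0.021, -0.026 and -0.0031. The median standard error of a member's log2 fold change was 0.53 in lactose against galactose. The last 2 comparisons share the glucose mice, and each other pair of comparisons likewise shares a diet. On the same 39 libraries DESeq2 called 31 of 45 members lower in lactose against galactose and voom called 17, so that the share of members called depended on the tool. Over all genes DESeq2 called 2457 lower among 31258 genes with any count. In voom 2327 were lower among the 14658 genes that passed the filter, so these 2 shares of all genes are not alike. The fit with the title-number triplets as a block called 27 members in lactose against galactose. The share of all genes lower in that fit is not given here, so the 27 has no background.

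The 7 members that fell in lactose against galactose were Gbp4, Iigp1, Gbp2, Ifi27, Ifit2, Irf1 and Gbp7. Among them are the 5 members that varied least within diets. Gbp4, a guanylate-binding protein, had 1.8, 2.86 and 3.76 CPM (lowest, median and highest) in lactose, 3.1, 4.77 and 7.89 CPM in galactose and 2.94, 3.45 and 4.97 CPM in glucose mice. Its log2 fold change was -0.78 (SE 0.124, adjusted p = 7.54e-06) in lactose against galactose, with 13 of 13 lactose mice below the galactose mean. Gbp4 was also lower in lactose than in glucose mice by a log2 fold change of -0.35 (SE 0.124, adjusted p = 0.0474) and higher in galactose than in glucose mice by 0.43 (SE 0.122, adjusted p = 0.0353). The ranges of the 3 diets overlapped, with lactose mice at the low end and galactose mice at the high end.

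Iigp1 had 2.8, 4 and 6 CPM in lactose, 5.24, 6.33 and 9.9 CPM in galactose and 3.09, 5.46 and 6.94 CPM in glucose mice. Its log2 fold change was -0.73 (SE 0.116, adjusted p = 8.4e-06) in lactose against galactose and -0.36 (SE 0.116, adjusted p = 0.0284) in lactose against glucose. Of the 13 lactose mice 13 lay below the galactose mean and 12 below the glucose mean. Iigp1 did not pass in galactose against glucose, with a log2 fold change of 0.36 (SE 0.115) and an adjusted p of 0.0615. Ifi27, a small mitochondrial protein, had 26.7, 39.7 and 64.5 CPM in lactose and 42.2, 54.2 and 74.8 CPM in galactose mice, with a log2 fold change of -0.38 (SE 0.119, adjusted p = 0.0124). Gbp2 had a log2 fold change of -0.52 (SE 0.143), Irf1 of -0.30 (SE 0.11), Gbp7 of -0.84 (SE 0.331) and Ifit2 of -1.55 (SE 0.525) in the same comparison. The Gbp7 call was lost in 18 of the 39 fits that left out 1 mouse each, which were any lactose mouse but 55, the galactose mice 7, 53 and 56 and the glucose mice 9, 66 and 68. The Irf1 call was lost without the lactose mouse 13, 54, 59, 63 or 69 or the galactose mouse 51, 53 or 56. The Ifit2 call was lost without the galactose mouse 56, where its log2 fold change was -1.09, and without the lactose mouse 55 it was -2.27.

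For the members that were highest in the 7 libraries, standard errors in the same fit were larger. Ifit3 had 5.66, 14.9 and 633 CPM in lactose, 14.2, 23 and 532 CPM in galactose and 11.3, 19.4 and 661 CPM in glucose mice. Its log2 fold change in lactose against galactose was -0.65 with a standard error of 0.826 (adjusted p = 0.577). Single mice also moved the count of calls. Without the lactose mouse 55 there were 38 members lower in lactose than in galactose, and without the galactose mouse 56 there were 4. The median log2 fold change of the members was -1.52 and -0.35 in these 2 fits. Over all genes, the fits that left out 1 mouse each called 3983 to 4882 in this comparison, in either direction. The Gbp4 call in galactose against glucose was lost without any 1 of the glucose mice 1, 17, 60, 61 and 66 and the galactose mice 7, 11 and 56, the count staying at 1 without the glucose mouse 61, and there were 2 calls without the galactose mouse 5, the glucose mouse 52 or the lactose mouse 55. The 2 calls in lactose against glucose became 0 without the glucose mouse 52 or 61 or the lactose mouse 64. They became 1 without the glucose mouse 1, 6, 9, 10 or 68, the lactose mouse 4, 12, 13, 54, 59, 63 or 69, or the galactose mouse 51.

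**Figure D4:**
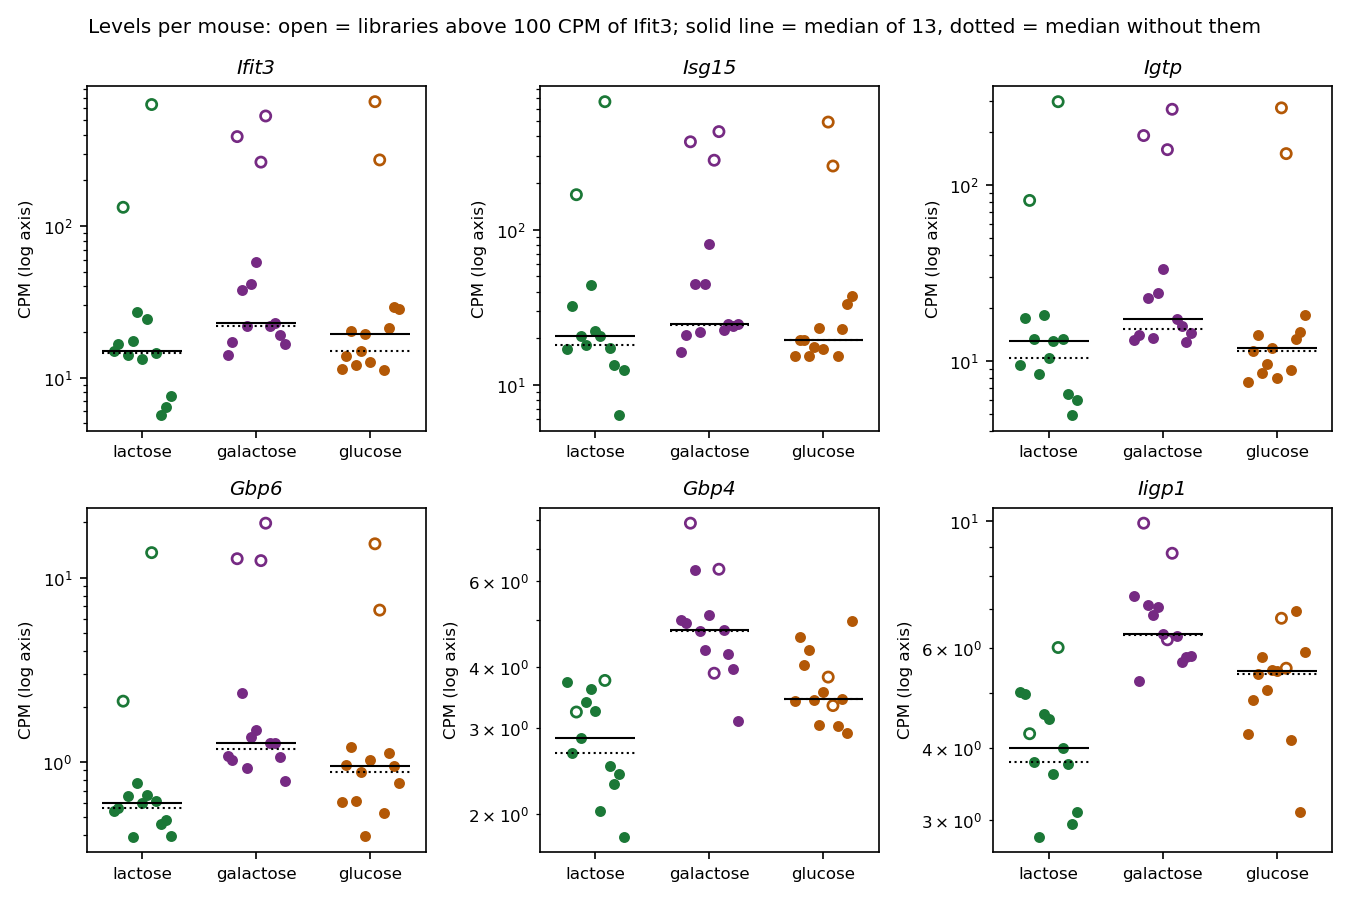
CPM of Ifit3, Isg15, Igtp, Gbp6, Gbp4 and Iigp1 in each mouse on log axes, for lactose, galactose and glucose; open circles are the 7 libraries above 100 CPM of Ifit3, solid lines the median of 13 mice and dotted lines the median without those libraries. Open circles stand far above the filled ones for Ifit3, Isg15, Igtp and Gbp6, and lie among or near them for Gbp4 and Iigp1, where the lactose mice are lowest and the galactose mice highest.

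Without the 7 libraries 11 lactose, 10 galactose and 11 glucose mice remained, and 14766 genes were tested. In lactose against galactose 34 of the 45 members were lower and none higher, where 27.9% of all tested genes were called and 13.2% were lower. The 34 held all 7 members called with all libraries. The median log2 fold change of the members was -0.60, against -0.013 over all tested genes, and the median standard error was 0.16. All 45 members had a negative log2 fold change, from -1.31 to -0.10 with TMM scaling, and all 45 were also below 0 with RLE factors and with library totals. Since the libraries left out were chosen by the level of a member, this fit trims the same quantity that it tests, and 3 of the 7 came from galactose. Leaving out the 3 whole triplets of neighbouring title numbers that hold the 7, with 1 mouse of each diet per triplet, gave 33 members lower. Of these 32 were among the 34, and 12.1% of all genes were lower in that fit. These triplets were also picked by the level of Ifit3, and that fit uses 30 of the same 32 libraries. The shared calls are thus no independent support.

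Among the effectors 15 of 24 were lower in lactose than in galactose mice. Ifit2, an RNA-binding protein of the Ifit family, had 1.23, 2.26 and 3.35 CPM in lactose, 3.51, 4.22 and 8.96 CPM in galactose and 2.21, 3.32 and 5.07 CPM in glucose mice. The remaining lactose and galactose mice did not overlap, and the log2 fold change was -1.22 (SE 0.183, adjusted p = 1.01e-05). Oas2 had 0.648, 1.45 and 2.48 CPM in lactose and 1.91, 2.56 and 5.03 CPM in galactose mice, with a log2 fold change of -1.16 (SE 0.234, adjusted p = 0.000414) and 11 of 11 lactose mice below the galactose mean. Bst2 (tetherin), which holds budding virus at the cell surface, had 3.92, 8.93 and 13.5 CPM in lactose and 10.3, 12.7 and 23.1 CPM in galactose mice (log2 fold change -0.65, SE 0.162, adjusted p = 0.00339). Ifit3 was now called, at -0.88 (SE 0.263, adjusted p = 0.0124), which the limit on Ifit3 itself bears on. Not called were Ifit1, Ifit1bl1, Isg15, Rsad2, Oas1g, Oasl1, Mx1, Ifi35 and Cmpk2. Isg15, for example, had 6.39, 18.2 and 44 CPM in lactose and 16.4, 24.3 and 81.2 CPM in galactose mice, with a log2 fold change of -0.67 (SE 0.266, adjusted p = 0.058). Counts of Ifit3 and Ifit1bl1, of Oas1a and Oas1g and of the guanylate-binding proteins can be shared with close copies and are uncertain to that degree.

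Of the sensors, Zbp1, Dhx58 and Ifih1 were lower and Ddx58 was not called. Zbp1 had 1.61, 3.93 and 8.77 CPM in lactose, 4.74, 9.69 and 22.7 CPM in galactose and 3.49, 5.82 and 13.6 CPM in glucose mice, with a log2 fold change of -1.31 (SE 0.268, adjusted p = 0.000483) in lactose against galactose. It was the largest change among the 45 members in this fit. Of the transcription factors, Irf7 was lower by a log2 fold change of -0.53 (SE 0.16, adjusted p = 0.0137) and Irf9 by -0.28 (SE 0.0663, adjusted p = 0.00199), and Stat2 was not called at -0.10 (SE 0.101, adjusted p = 0.481).

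All 14 gamma genes were lower in lactose than in galactose mice, of which Irf1 and Tap1 were not called with the title-number triplets as a block. Gbp6 had 0.393, 0.564 and 0.774 CPM in lactose, 0.787, 1.17 and 2.38 CPM in galactose and 0.399, 0.882 and 1.21 CPM in glucose mice, and its log2 fold change was -1.17 (SE 0.187, adjusted p = 2.71e-05). Among the 32 libraries every lactose mouse lay below every galactose mouse. Irgm2 had 6.61, 11.7 and 14.7 CPM in lactose and 15.1, 17.4 and 25.9 CPM in galactose mice, again without overlap, at a log2 fold change of -0.79 (SE 0.125, adjusted p = 2.14e-05). Cxcl10 had 1.03, 1.33 and 3.3 CPM in lactose and 1.87, 2.94 and 5.77 CPM in galactose mice, at -1.15 (SE 0.262, adjusted p = 0.00141). The immunoproteasome subunits Psmb8 and Psmb9 changed by -0.60 (SE 0.179) and -0.59 (SE 0.16), and Tap1 by -0.28 (SE 0.0958, adjusted p = 0.0276).

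Without the 7 libraries, groups without overlap were found for 5 members, Ifit2, Gbp6, Gbp7, Iigp1 and Irgm2. Of all tested genes 0.447% had every remaining lactose library below every remaining galactose library. The libraries left out were chosen by the level of a member, so this share is not an even background for the members. With all 39 libraries the 5 overlapped, as in Gbp6 with 13.7 CPM in the lactose mouse 55 and 0.787 CPM in the lowest galactose mouse. Of these 5, 4 are gamma genes. With all classes set side by side, 20 of 31 type I/III genes and 14 of 14 gamma genes were lower, with median log2 fold changes of -0.55 and -0.71 and median standard errors of 0.19 and 0.14. The difference between the classes was not tested. On the scale of the mean log2 CPM relative to the 32 libraries, the gamma genes ran from -0.71 to 0.152 in lactose and from 0.118 to 0.806 in galactose mice, where only the lactose mouse 18 with 0.152 lay above the lowest galactose mouse. The type I/III genes ran from -0.835 to 0.444 in lactose and from -0.185 to 1.14 in galactose mice, with a wider overlap.

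**Figure D5:**
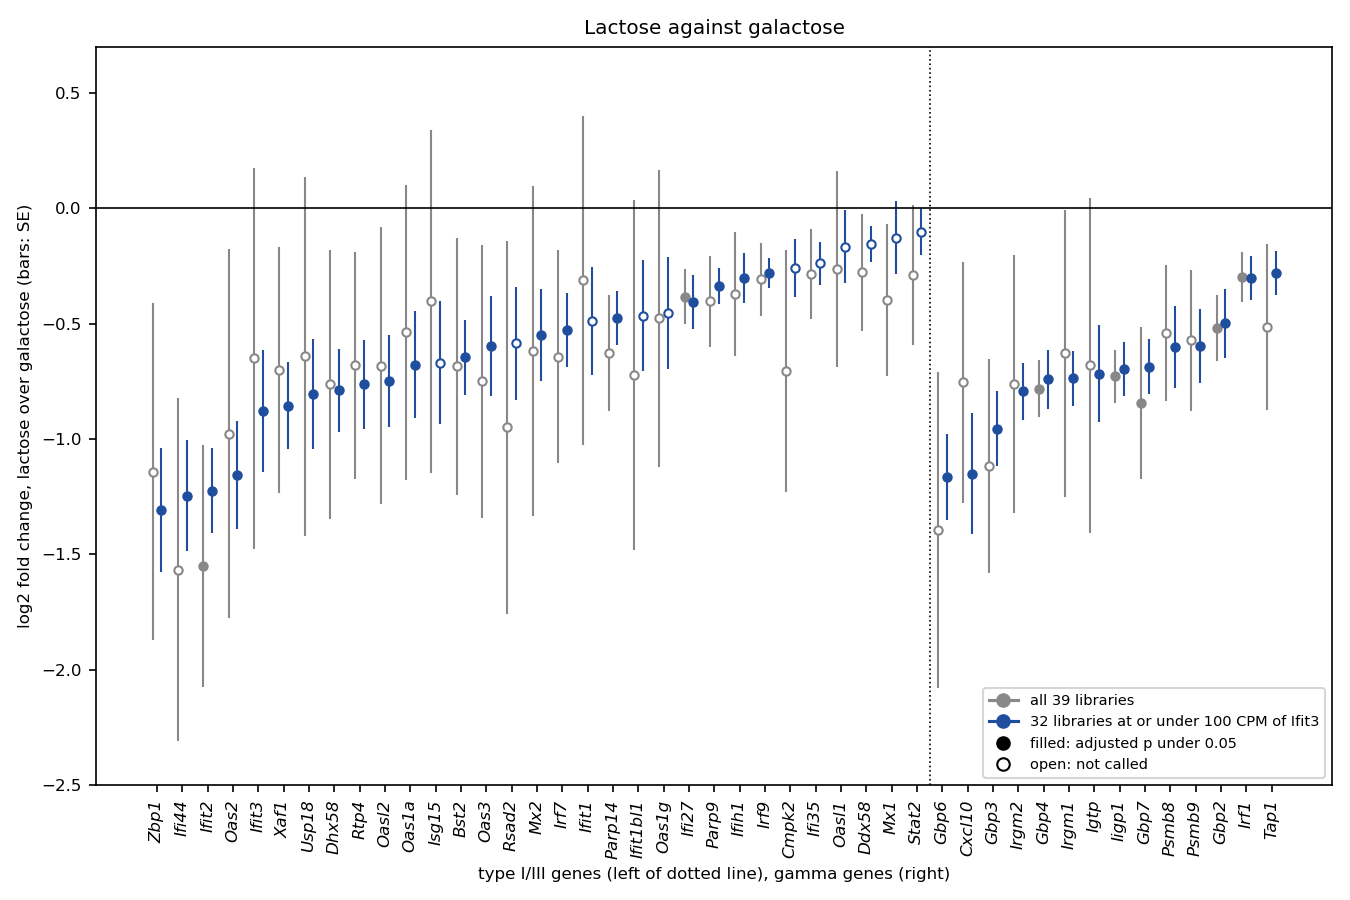
Log2 fold change of each member in lactose against galactose with its standard error, with all 39 libraries in grey and with the 32 libraries at or under 100 CPM of Ifit3 in blue; filled points had an adjusted p under 0.05. All points lie below 0, the bars shorten without the 7 libraries, and 34 of the 45 blue points are filled against 7 of the grey ones.

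The remaining lactose mice were also set against the glucose mice. In lactose against glucose 4 of the 45 members were lower and none higher, where 11.4% of all tested genes were called and 4.73% were lower. They were Ifit2, at a log2 fold change of -0.63 (SE 0.18, adjusted p = 0.0215), Gbp3, at -0.50 (SE 0.16, adjusted p = 0.0395), Gbp4, at -0.42 (SE 0.126, adjusted p = 0.0286), and Iigp1, at -0.39 (SE 0.114, adjusted p = 0.0253). The median of the members was -0.19. The count was 2 without the glucose mouse 61 or 68 or the lactose mouse 69, 7 without the lactose mouse 4 and 8 without the lactose mouse 18. It was also 2 without the 3 triplets, where 4.33% of all genes were lower.

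In galactose against glucose 6 members were higher and none lower, where 3.82% of all tested genes were called and 0.982% were higher. They were Parp14, an ADP-ribosyltransferase, at a log2 fold change of 0.53 (SE 0.118, adjusted p = 0.00782), Irgm2 at 0.52 (SE 0.124, adjusted p = 0.0129), Irgm1 at 0.48 (SE 0.119, adjusted p = 0.0176), Gbp7 at 0.44 (SE 0.118, adjusted p = 0.0298), Cmpk2, a mitochondrial nucleotide kinase, at 0.45 (SE 0.125, adjusted p = 0.037), and Gbp6 at 0.61 (SE 0.18, adjusted p = 0.0485). Parp14 had 79.2, 106 and 130 CPM in galactose and 54.7, 72.4 and 93.9 CPM in glucose mice, with 10 of 10 galactose mice above the glucose mean. Gbp4, the member called with all libraries, was at 0.32 (SE 0.126, adjusted p = 0.14). The median of the members was 0.46, with 44 of 45 above 0. The count was 3 without the galactose mouse 51 or the glucose mouse 60 or 66, 10 without the lactose mouse 64, 12 without the galactose mouse 5 and 17 without the glucose mouse 68. It was 15 with DESeq2, which called 317 of 30832 genes with any count higher. With voom it was 24, where 460 of 14766 tested genes were higher. Without the 3 triplets the count was 6, all shared, where 0.958% of all genes were higher. That fit uses 30 of the same 32 libraries, so the shared calls are no independent support.

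Both runs of title numbers were also read on their own. In lactose against galactose without the 7 libraries, 6 members were lower among the mice 1 to 18 and 33 among the mice 49 to 69, with median log2 fold changes of -0.34 and -0.89. Over all genes 311 of 14818 were lower in the lower run and 1113 of 14807 in the upper run, so that calls were fewer overall where fewer members were called. Lactose against glucose gave 0 and 6 lower members, with medians of 0.072 and -0.47, so that the direction of the median held only in the upper run. In galactose against glucose 0 and 1 members were higher, with medians of 0.46 and 0.41. Each run holds 16 of the 32 mice. With all 39 libraries the counts were 3 and 4 in lactose against galactose and 0 in each run in the other comparisons, with medians of 0.45 and -0.31 in lactose against glucose. A test of the difference between runs called no gene, member or not, in any comparison. It covered 14658 genes with all libraries and 14766 without the 7. Without the 7 libraries the unadjusted p was under 0.05 for 12 members in lactose against galactose and 15 in lactose against glucose. In galactose against glucose it was so for 0 members. With all libraries the counts were 0, 2 and 0 in the same order. The share of all genes with such a p is not given here, so these counts have no background.

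Further genes of the pathway were followed in 5 lists, whose counts stand against the 13.2% of all genes that were lower in lactose against galactose without the 7 libraries and the 0.982% that were higher in galactose against glucose. Of 45 tested interferon-induced genes outside the 45 members, 28 were lower and 1 was higher in lactose than in galactose mice without the 7 libraries, and 11 were lower with all libraries. Ifi47, an immunity-related GTPase, was at -0.998 (SE 0.145, adjusted p = 6.87e-06) and Phf11d at -0.75 (adjusted p = 0.000304) without the 7 libraries. The exception was Ube2l6, the enzyme that passes Isg15 on to its targets, at 0.38 (SE 0.101, adjusted p = 0.00482). Of 12 genes of antigen presentation on MHC class I, 4 were lower, among them Erap1, a peptidase that trims antigenic peptides, at -0.42 (SE 0.0702, adjusted p = 4.46e-05), and Psmb10, an immunoproteasome subunit, at -0.54 (SE 0.115, adjusted p = 0.00067). Of 10 receptors and kinases 1 was higher and 1 lower in lactose than in galactose mice, and likewise in lactose than in glucose mice. The higher one was the type I receptor chain Ifnar2, at 0.41 (SE 0.105, adjusted p = 0.00404) against galactose and 0.43 (adjusted p = 0.00654) against glucose. Of all 14766 tested genes 2161 were higher in lactose than in galactose mice. Against glucose 989 were higher and 698 lower. Single calls among 10 genes are thus not read as a result about the list. Of 15 upstream sensors and adaptors 3 were lower than in galactose mice, Tlr3, Tlr7 and Cgas, and of 10 negative regulators 2 were lower, Ptpn2 and Trim27. The last 2 counts are near the share over all genes. In galactose against glucose 8 of the 45 other interferon-induced genes were higher, led by Ddx60 at 0.75 (adjusted p = 0.0176).

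Markers of some other cell types were called in the same contrast, in both directions. Without the 7 libraries 27.9% of all tested genes were called in it and 13.2% were lower. In lactose against galactose without the 7 libraries, 7 of 9 tested markers of fibroblasts and smooth muscle were lower, with a median log2 fold change of -1, and their summed level was 120 to 273 CPM in lactose and 207 to 802 CPM in galactose mice. Of 10 markers of macrophages and dendritic cells 3 were lower and 1 was higher, with summed levels of 102 to 174 CPM in lactose and 133 to 240 CPM in galactose mice. No marker of T and natural killer cells was called among 8, with summed levels of 34.8 to 86 CPM in lactose and 40.2 to 90.7 CPM in galactose mice. Of 7 markers of B and plasma cells 2 were higher with lactose, Jchain and Igha. Of 4 endothelial markers 1 was lower, Pecam1. Of 8 enterocyte markers Lct and Cdh1 were lower and Fabp2 was higher. All 3 tested markers of pancreatic acinar cells were lower, with a median log2 fold change of -5.5 and summed levels of 13.6 to 35.8 CPM in lactose and 17.7 to 42200 CPM in galactose mice, the highest being the galactose mouse 11. No marker was at 0 in all libraries. The part of these cells in the interferon gene differences was not tested.

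Scaling changed the balance of the whole comparison but not the sign of the members in lactose against galactose. Over all 39 libraries 2328 genes were higher and 2204 lower in lactose against galactose with TMM factors, and 1064 and 4957 with library totals, which moved the median of all genes to -0.16. Lactose against glucose had 1279 higher and 1002 lower genes with TMM factors, and 623 and 2904 with library totals, with the median of all genes at -0.13. In galactose against glucose 177 were higher and 420 lower with TMM factors, and 315 and 286 with library totals. Relative to that shift the members' median was -0.78 against -0.16 of all genes in lactose against galactose with library totals. Without the 7 libraries the higher and lower genes in lactose against galactose were 2161 and 1952 with TMM factors and 925 and 4806 with library totals. In lactose against glucose they were 989 and 698 with TMM factors and 494 and 1928 with library totals, and in galactose against glucose 145 and 419 with TMM factors and 393 and 233 with library totals.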

How the data were processed

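Total RNA of scraped proximal small intestine was isolated with RNeasy columns and sequenced on a DNBSEQ platform, per the labels. For each library the authors provided unnormalised gene counts as deposited, obtained with HTSeq after FastQC and STAR on GRCm39, per the submitters' processing notes. Versions, strand setting and annotation release are not given in the sources used here. The 5 summary lines were kept out of library sizes and tests and held 10.1 to 15.7% of the counts of a library. Symbols came from GENCODE vM21 names, matching 52073 of 56980 identifiers.

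Counts were tested with edgeR 4.0.16 in R 4.3.3 (filterByExpr by diet, TMM factors, 1 model with a mean per diet, two-sided quasi-likelihood F tests, Benjamini-Hochberg adjustment over all tested genes, threshold 0.05), after a test on simulated data. The standard error is the absolute log2 fold change over the square root of F. Log2 CPM used a prior count of 2. Mice in a direction are those of the group named first beyond the mean of the other. Nothing in the labels pairs mice, although the title numbers form 13 triplets of neighbours with 1 mouse per diet. The p values set the diet differences against the spread between mice, which the main fit takes as independent.

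The fit was run with and without the 7 libraries above 100 CPM of Ifit3. Alternatives were DESeq2 1.42.0, voom of limma 3.58.1 with sample quality weights, scaling by RLE factors or by library totals, other filters, title-number covariates and blocks, single runs, 2 diets alone and left-out libraries. The same alternatives on the 32 libraries, and the fit without 3 triplets, were added after the data were seen. The members and all gene lists were chosen with earlier results of these data known. All members may be named; from other lists, up to 4 called genes of smallest p per list and comparison. A result on 1 gene outside the members is not reported here. ISRE and GAS cores were searched in RefSeq promoter windows of GRCm38.p6, a build other than that of the counts.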

Additional observations from a re-analysis of the deposited data

Results flagged for a closer look

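Only the 10 galactose mice under 100 CPM of Ifit3 form a group small enough for a check of single far values. In that group 8 of the 45 members had a value set apart from the rest. For independent values chance flags about 1 in 20 groups. The 45 members were measured in the same 10 mice, which were set apart by a member, so that rate does not apply to this count. In 6 of the 8 the galactose mouse 51, the library just under the Ifit3 limit, stood above the others. It had 100 CPM of Ifit1 (next highest 62.8), 91.3 CPM of Ifit1bl1 (next 54.6), 81.2 CPM of Isg15 (next 44.7), 26.8 CPM of Rsad2 (next 17.4), 4.31 CPM of Mx2 (next 2.92) and 7.05 CPM of Ifi44 (next 4.16). The galactose mouse 11 had 2.38 CPM of Gbp6 (next 1.49), and the galactose mouse 5 had the lowest Parp14 at 79.2 CPM (next lowest 103).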

How the results depend on the processing

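No called value changed sign under the alternatives run, while counts of calls often moved by more than 1.5 times. The median of the members in lactose against glucose, which was not tested, did change sign (0.348 without the glucose mouse 52), and in lactose against galactose it was -1.3 with DESeq2. With all 39 libraries the members called in lactose against galactose (7) were 31 with DESeq2, 17 with voom, 12 with library totals, 27 with the triplets of title numbers as a block, 3 and 4 in the title numbers 1 to 18 and 49 to 69 alone, 34 without the libraries above 100 CPM of Ifit3 and 29 without those above 50 CPM. In lactose against glucose (2) they were 4 with DESeq2, 1 with RLE factors, 4 with library totals, 0 with no filter, 0 in each run alone, and 4 and 5 without libraries above 100 and 50 CPM. In galactose against glucose (1) they were 6 with DESeq2, 0 with voom, 2 with library totals, 0 with no filter, 3 with the block, 0 in each run, 2 with the 2 diets alone, 0 without the galactose mouse 11, and 6 and 3 at the limits of 100 and 50 CPM. Genes called moved to 1247 with voom, 908 with the block, 72 and 179 in the runs alone (galactose against glucose, 597), to 3527 with library totals and 18 in the lower run (lactose against glucose, 2281), and to 950 and 2932 in the runs (lactose against galactose, 4532).

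Without the 7 libraries the members called in galactose against glucose (6) were 15 with DESeq2, 24 with voom, 15 with library totals, 3 with no filter, 0 and 1 in the runs, 11 with the 2 diets alone and 3 at the limit of 50 CPM, and the genes called (564) were 850, 1390, 375 with no filter, and 57 and 105 in the runs. In lactose against glucose the members (4) were 14 with library totals, 1 with no filter, 0 in the lower run and 2 without the 3 triplets, and the genes (1687) 1105 with no filter and 8 in the lower run. In lactose against galactose the members (34) were 6 in the lower run, and the genes (4113) 657 and 2485 in the runs. With the triplets of title numbers as a block 31, 3 and 7 members were called in lactose against galactose, lactose against glucose and galactose against glucose, and 6 calls were lost, those of Irf1, Ifih1, Oas3, Tap1 and Oas1a in lactose against galactose and of Gbp4 in lactose against glucose.

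Leaving out each library in turn gave 4 to 38 members in lactose against galactose, 0 to 3 in lactose against glucose and 0 to 2 in galactose against glucose, and 29 to 39, 2 to 8 and 3 to 17 without the 7 libraries. Genes called ran from 3983 to 4882, 1774 to 2640 and 396 to 881, and from 3423 to 4365, 1183 to 1955 and 348 to 797 without the 7. The members' medians ran from -1.52 to -0.353, -0.974 to 0.348 and 0.239 to 1.15, and from -0.725 to -0.506, -0.263 to -0.139 and 0.344 to 0.536 without the 7. The labels give no replicate numbers that pair mice, so the main fit was not paired. The block used above is one of neighbouring title numbers, which the labels do not call a pairing. The causes of these moves were not tested. Depth limits the interferon ligands, which had too few counts for a test.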
